A study of Mus musculus with 6 samples.

Results

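The genes of the DNA replication machinery were followed in sorted CD4+CD8+ double-positive thymocytes with and without Flvcr. The set held 48 named genes for origins, the replicative helicase, polymerases, clamp, nucleotide supply and chromatin assembly. They were chosen by name, and each was represented by its brightest probe among those detected (p under 0.05) on 3 or more of the 6 arrays. In this way 45 of the 48 genes were measured, out of 8808 genes measured in all. The study hybridised total RNA, labelled with biotin, to Illumina bead arrays, 1 array per sample. It had 3 control samples (Flvcr+/+) and 3 Flvcr-deleted samples (Flvcr-/-), all from thymus of mice on a C57BL/6 background. Age, and how and in which cells the deletion was made, are not given in the sources used here. The product of Flvcr1 exports heme from the cell, and the comparison asks how transcripts differ without it. The labels do not say whether replicates were separate mice, and p-values then measure the spread between these samples, which may be in part technical.

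Replication starts at origins bound by the origin recognition complex, which with Cdc6 and Cdt1 loads the ring of MCM proteins onto DNA. Kinases, Cdc45 and the GINS complex then turn the loaded ring into an active helicase, and polymerases, the sliding clamp and its loader copy the opened strands. Many of these genes are targets of E2F transcription factors and are transcribed around the entry into S phase. In the thymus, early double-positive cells are dividing blasts, and most double-positive cells are small and no longer divide. In bulk samples such as these, fewer dividing cells and less RNA per cell cannot be told apart.

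All values below are log2 levels after background correction and quantile normalization, and a difference is Flvcr-deleted minus control on that scale. Values per array are in the order of replicates 1, 2 and 3. On each array, 15307 to 15792 of 45281 probes were detected, and arrays correlated at 0.977 to 0.986 within a group and at 0.978 to 0.984 across groups. Flvcr1 itself had a difference of -0.91 (limma adjusted p = 0.0317), from 11.07 ± 0.18 (SD, n = 3) with the gene to 10.16 ± 0.27 (SD, n = 3) without it. Of 13 listed markers of double-positive cells, 9 were measured, among them Rag1, Rag2, Cd4 and Cd8b1, while Cd8a was detected on 0 arrays. Levels of Xist split the arrays within each group, at 4.72 on control replicate 3 and on Flvcr-deleted replicate 1 and at 9.49 to 9.99 on the other 4. With such a gap, the arrays of a group were not all repeats of the same RNA.

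No replication gene passed the test between the genotypes, and the mean over the genes varied more among control arrays than between the genotypes. Of the 45 measured genes, 0 passed an adjusted p of 0.05 (limma, over all measured probes), beside 0.148% of all genes, and the smallest adjusted p was 0.9997. At an unadjusted p under 0.05 there were also 0, beside 4.63% of all genes. Groups did not overlap for 0 of the 45, beside 9.59% of all genes. Log2 differences ran from -0.16 to 0.70 with a median of 0.08, and standard errors were 0.11 to 0.34. The 95% interval lay within 2-fold in either direction for 44 of 45 genes (97.8%, and 92.4% of all genes), the exception being Prim1. It lay within 1.5-fold for 31 of the 45. These intervals are per gene and are no limit of detection.

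**Figure D1:**
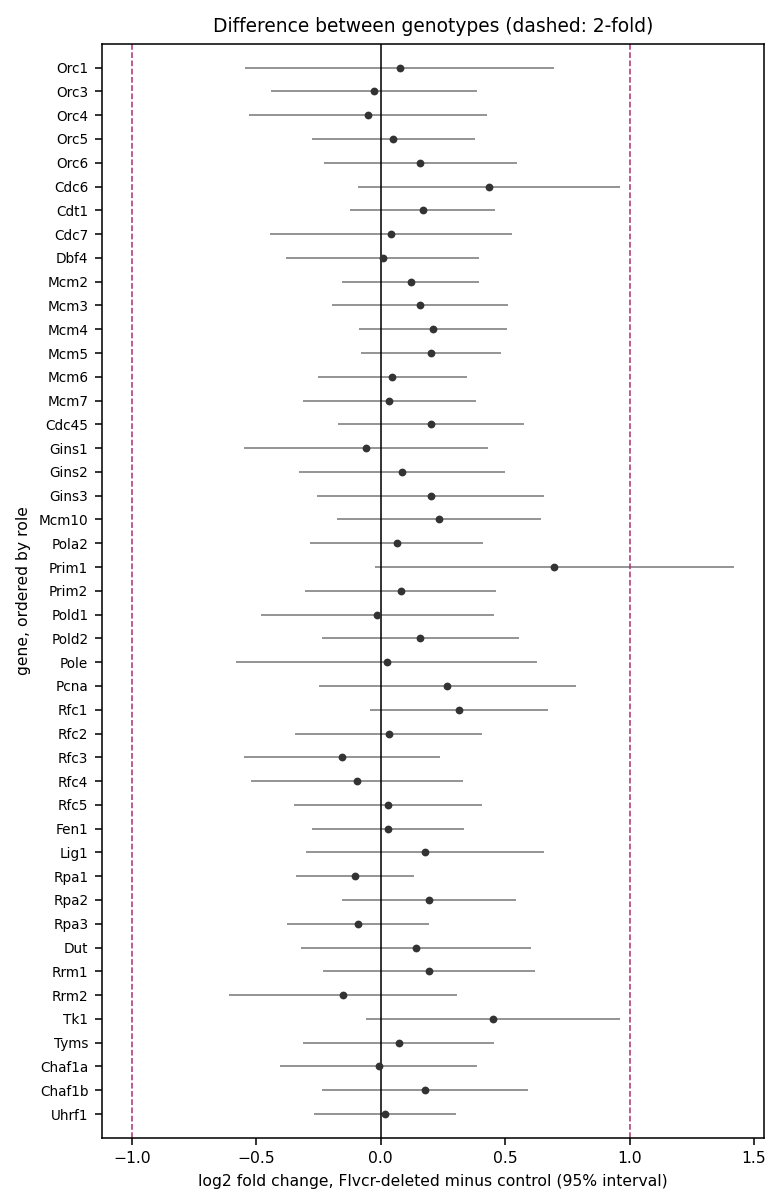
Log2 difference (Flvcr-deleted minus control, horizontal axis) of each of the 45 measured replication genes, ordered by role, as points with 95% intervals and dashed lines at 2-fold. Every interval includes 0, and that of Prim1 alone reaches beyond 2-fold.

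Of the 45 genes, 35 read higher in Flvcr-deleted cells (77.8%, beside 51.8% of all genes), a lean that rested on single arrays. Without control replicate 2, 17 of 45 read higher. Leaving out Flvcr-deleted replicate 2 gave 23 and leaving out Flvcr-deleted replicate 3 gave 24. The count was 41 when control replicate 3 was left out, 38 when Flvcr-deleted replicate 1 was, and 32 when control replicate 1 was. The mean over the 45 genes was 9.96, 9.57 and 10.14 on the control arrays, and for the Flvcr-deleted arrays it was 9.80, 10.10 and 10.09. As group means this was 9.89 ± 0.29 (SD, n = 3) for control, while Flvcr-deleted cells had 9.996 ± 0.17 (SD, n = 3). The difference was 0.11, against a range of 0.57 within control. Without control replicate 2 the difference was -0.05. The groups overlapped, with the lowest and the highest mean of all 6 arrays both in control.

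**Figure D2:**
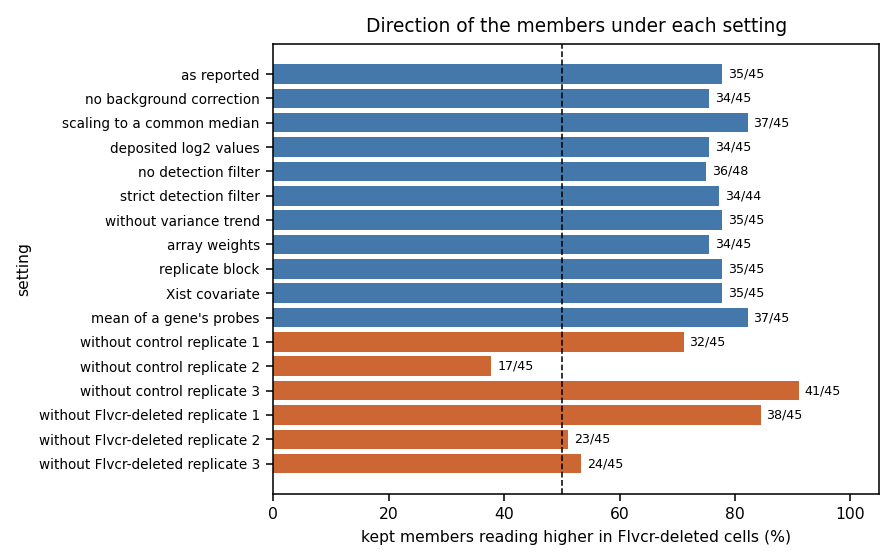
Percent of measured replication genes that read higher in Flvcr-deleted cells (horizontal axis) under each way of processing (blue) and with each array left out (orange), with counts beside the bars and a dashed line at 50%. Processing choices left the count between 34 and 37, and leaving out 1 array moved it from 17 to 41 of 45.

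Control replicate 2 carried the lowest level of most replication genes. It was the lowest of the 6 arrays for 36 of the 45 genes (80.0%), whereas it was the lowest for 18.9% of all genes measured. On that array 43 of 45 genes lay below their own mean over the 6 arrays, with a mean deviation of -0.37, beside -0.01 over all genes. Flvcr-deleted replicate 1 came next, with 39 of 45 genes below their mean and a mean deviation of -0.14. Far fewer lay below their mean on control replicate 3 (8) and on Flvcr-deleted replicates 2 (11) and 3 (8). Low and high arrays thus occurred in both groups. The range among the 3 control arrays exceeded the difference between genotypes for 43 of 45 genes (95.6%, beside 85.9% of all genes). The 9 genes with their lowest value elsewhere were Orc1, Orc3, Orc4, Orc5, Mcm2, Dbf4, Pcna, Rfc3 and Rpa1. These counts were made after the array had been seen to stand apart, and they are given as a description.

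**Figure D3:**
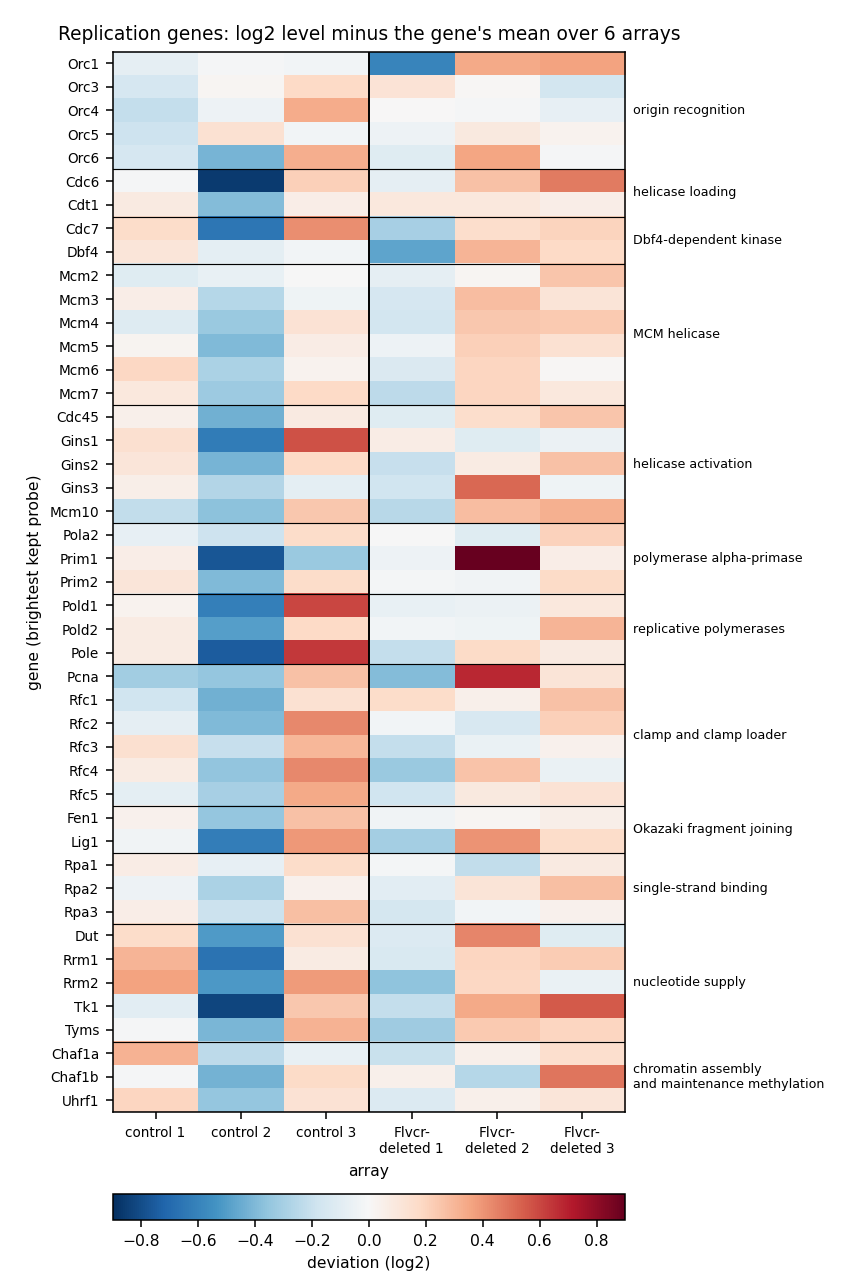
Heat map of the log2 level of each measured replication gene (rows, grouped by role) minus its mean over the 6 arrays (columns, control left of the line and Flvcr-deleted right), from blue (low) to red (high). Control replicate 2 is blue for 43 of 45 genes, and Flvcr-deleted replicate 1 is blue for 39.

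Promoters were searched for E2F words because most of the genes were low on the same array. RefSeq windows (GRCm38.p6) of 250 bases before to 50 after the gene start were found for 42 of the 48 genes. The words searched, on both strands and with overlaps allowed, were TTTGGCGC, TTTCCCGC, TTTCGCGC and TTTGCCGC. At least 1 word was found for 15 of the 42 genes (35.7%), beside 4.95% of 7110 measured genes with a window and 2.605% of all genes with a window. Counted by window, it was 28.8% of the 52 windows of the 42 genes. This compares with 4.09% of the 9094 windows of measured genes and 2.26% of all 32851 windows. Many of these genes are E2F targets, as said above, so these shares do not bear on the low array. The 42 include Orc2, Pola1 and Pole2, which were not measured, and of these Pola1 and Pole2 held a word. Of the 30 genes with a window that were lowest on control replicate 2, 10 held a word, and of the 9 that were lowest on another array, 3 did. A match is a description of letters and no site of binding. The windows below, with words in capitals, belong to a pair of helicase genes with words that were lowest on that array (Mcm5, chr8:75109259-75109558 (+ strand), and Mcm6, chr1:128359656-128359955 (- strand)), to a helicase gene with no word in its window that was not (Mcm2, chr6:88898731-88899030 (- strand)), to the loader gene with the lowest value there relative to its mean (Cdc6, chr11:98907901-98908200 (+ strand)) and to an origin gene with a word that was not lowest there (Orc3, chr4:34614893-34615192 (- strand)).
Mcm5: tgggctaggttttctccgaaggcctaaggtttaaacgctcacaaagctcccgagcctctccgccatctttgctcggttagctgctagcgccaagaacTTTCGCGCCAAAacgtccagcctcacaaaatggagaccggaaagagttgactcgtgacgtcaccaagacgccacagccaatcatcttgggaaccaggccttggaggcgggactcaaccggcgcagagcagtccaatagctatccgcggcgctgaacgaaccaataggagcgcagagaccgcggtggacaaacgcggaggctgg
Mcm6: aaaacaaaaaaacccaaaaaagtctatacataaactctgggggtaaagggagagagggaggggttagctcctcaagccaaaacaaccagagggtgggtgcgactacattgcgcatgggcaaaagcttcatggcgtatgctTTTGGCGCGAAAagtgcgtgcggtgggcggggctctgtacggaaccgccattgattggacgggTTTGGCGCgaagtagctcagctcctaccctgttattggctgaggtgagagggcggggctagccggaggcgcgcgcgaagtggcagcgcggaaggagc
Mcm2: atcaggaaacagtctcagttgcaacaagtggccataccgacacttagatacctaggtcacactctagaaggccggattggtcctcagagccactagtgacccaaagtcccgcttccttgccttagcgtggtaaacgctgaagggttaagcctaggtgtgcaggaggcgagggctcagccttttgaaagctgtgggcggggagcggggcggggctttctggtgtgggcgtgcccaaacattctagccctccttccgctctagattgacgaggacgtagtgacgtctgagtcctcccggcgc
Cdc6: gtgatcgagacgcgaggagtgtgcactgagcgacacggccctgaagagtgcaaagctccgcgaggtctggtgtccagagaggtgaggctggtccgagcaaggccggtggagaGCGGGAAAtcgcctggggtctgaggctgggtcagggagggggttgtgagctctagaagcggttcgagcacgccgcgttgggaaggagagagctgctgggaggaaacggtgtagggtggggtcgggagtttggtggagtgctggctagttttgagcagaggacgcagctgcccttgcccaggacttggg
Orc3: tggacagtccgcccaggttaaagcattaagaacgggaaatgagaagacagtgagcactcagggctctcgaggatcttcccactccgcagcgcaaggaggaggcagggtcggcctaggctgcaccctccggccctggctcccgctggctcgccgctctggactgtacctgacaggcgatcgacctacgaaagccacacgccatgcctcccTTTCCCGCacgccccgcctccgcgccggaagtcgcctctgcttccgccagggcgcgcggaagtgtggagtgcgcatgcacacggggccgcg
In Mcm5 a pair of overlapping words on opposite strands (TTTCGCGC and TTTGGCGC) starts 153 and 149 bases before the gene start. Mcm6 holds the same words in an overlapping pair, 110 and 106 bases before the start, and a further word at 47. The single words of Cdc6 and Orc3 start 138 and 41 bases before the start.

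Origin recognition genes, whose products mark replication origins, had the narrowest range of group means within control (0.32). Of 6 subunits 5 were measured. Orc2 was detected on 1 array with one probe and on 2 with another, and was not tested. The mean of the 5 was 7.97, 8.06 and 8.29 in control, and Flvcr-deleted cells had 8.005, 8.29 and 8.16. Here control replicate 2 was not the lowest array. Orc6, the smallest subunit, had the largest difference of the group, with 10.63, 10.36 and 11.10 on the control arrays and 10.66, 11.13 and 10.77 on the Flvcr-deleted arrays. Its difference was 0.16 (SE 0.18, 95% interval -0.23 to 0.55), and unlike the other measured subunits it was lowest on control replicate 2. Orc5, an ATPase-family subunit, instead had its highest value there (9.50). Orc1, the subunit that gives the complex much of its ATPase activity, was near background, detected on 3 arrays with Flvcr and 2 without.

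The helicase loading pair lay furthest below its mean on control replicate 2 of all role groups (-0.63). Cdc6, the ATPase that recruits the MCM ring, read 8.76, 7.91 and 8.99 with Flvcr and 8.69, 9.03 and 9.24 without. Control replicate 2 was low, and the other control arrays lay within the Flvcr-deleted range. The difference was 0.44 (SE 0.25, interval -0.09 to 0.96), and that of the loading pair, 0.30, was 0.06 without control replicate 2. A second probe of Cdc6 had a difference of 0.60 and was lowest on control replicate 1. Cdt1, the partner of Cdc6, read 11.64, 11.17 and 11.62 with Flvcr and 11.66, 11.66 and 11.62 without, and the difference was 0.17 (SE 0.14). Outside control replicate 2 its values lay between 11.62 and 11.66. Cdc7, the catalytic subunit of the kinase that fires origins, read 10.41, 9.60 and 10.66 against 9.94, 10.40 and 10.44 (difference 0.04, SE 0.23). Its activator Dbf4 read 10.48, 10.28 and 10.34 against 9.90, 10.68 and 10.55 (difference 0.01, SE 0.18). For Dbf4 it was Flvcr-deleted replicate 1 that was low, and the kinase pair had the lowest mean of any array there (9.92, against 9.94 on control replicate 2).

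The MCM helicase genes, which encode the ring that unwinds DNA, were all measured, and all 6 read slightly higher in Flvcr-deleted cells. Their mean was 11.20 ± 0.19 (SD, n = 3) with Flvcr and 11.33 ± 0.17 (SD, n = 3) without, and the difference of 0.13 was smaller than either SD. Without control replicate 2 it was 0.02. Mcm4 had the largest difference of the group and read 12.44, 12.22 and 12.69 against 12.39, 12.80 and 12.79. The difference was 0.21 (SE 0.14, interval -0.09 to 0.51). Mcm5 had the same low array, at 12.49, 12.07 and 12.53 against 12.42, 12.68 and 12.60 (difference 0.20). Mcm2 differed from the rest in its order, with 10.88, 10.92 and 10.98 against 10.91, 11.004 and 11.24, and its lowest array was control replicate 1. Mcm3, Mcm6 and Mcm7 had differences of 0.16, 0.05 and 0.03.

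Genes that activate the helicase were lowest as a group on control replicate 2 and highest on control replicate 3. All 5 were measured, with a mean of 9.26, 8.81 and 9.44 with Flvcr and 9.10, 9.42 and 9.39 without. Mcm10, which is needed to start unwinding, read 9.60, 9.45 and 10.07 against 9.58, 10.10 and 10.14, a difference of 0.23 (SE 0.19, interval -0.18 to 0.64). A second probe of Mcm10 gave -0.17, so its direction depended on the probe. Gins1, a GINS subunit, ranged more widely in control (10.05, 9.28 and 10.48) than in Flvcr-deleted cells (9.98, 9.80 and 9.86), with a difference of -0.06 (SE 0.23). Cdc45, the helicase cofactor, and the GINS genes Gins2 and Gins3 had differences of 0.20, 0.09 and 0.20. The further probes of Gins2 each gave -0.04.

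Among polymerase genes, Prim1 had the largest difference of the whole set but was near background. Prim1, the catalytic subunit of primase, read 5.65, 4.81 and 5.25 with Flvcr and 5.54, 6.62 and 5.64 without, and passed detection on 1 array with Flvcr and 3 without. The difference of 0.70 (SE 0.34, interval -0.02 to 1.42) had an unadjusted p of 0.0571 by limma, and it was 0.26 without background correction. Flvcr-deleted replicate 2 was its highest array and control replicate 2 its lowest, and the groups overlapped. Pola2, the second subunit of polymerase alpha, read 9.24, 9.13 and 9.48 against 9.31, 9.202 and 9.52 (difference 0.06, SE 0.16). Prim2, the large primase subunit, had a difference of 0.08, and Pola1 was detected on 0 arrays.

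The subunit genes of the leading and lagging strand polymerases had the widest range within control, and Pole2 was detected on 0 arrays with either probe. The mean of Pold1, Pold2 and Pole was 9.61, 8.93 and 10.02 with Flvcr and 9.44, 9.57 and 9.71 without. That range of 1.09 within control compares with a difference of 0.06 between genotypes, which was -0.24 without control replicate 2. Pold1, the catalytic subunit of polymerase delta, read 11.15, 10.50 and 11.72 against 11.05, 11.07 and 11.21 (difference -0.01, SE 0.22). Control replicate 3 was its highest and control replicate 2 its lowest array, and the 3 Flvcr-deleted arrays lay between them. Pold2, its accessory subunit, read 9.83, 9.26 and 9.93 against 9.73, 9.71 and 10.06 (difference 0.16, SE 0.19). Pole, the catalytic subunit of polymerase epsilon, ran from 7.02 to 8.402 within control.

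Clamp, clamp loader and Okazaki fragment genes were mixed in direction by their brightest probes. Pcna, the sliding clamp, read 8.90, 8.87 and 9.48 against 8.83, 9.90 and 9.33 (difference 0.27, SE 0.24). Its value on Flvcr-deleted replicate 2 was the highest and its value on Flvcr-deleted replicate 1 the lowest. Rfc1, the large subunit of the clamp loader, had the largest difference of the group, with 9.43, 9.17 and 9.75 against 9.77, 9.65 and 9.87. The difference was 0.31 (SE 0.17, interval -0.04 to 0.67), and only control replicate 3 overlapped the Flvcr-deleted range. Rfc2 read 11.40, 11.08 and 11.91 against 11.45, 11.34 and 11.69 (difference 0.03, SE 0.18). The small subunits Rfc3, Rfc4 and Rfc5 had differences of -0.16, -0.10 and 0.03. Second probes of Rfc3 and Rfc4 gave 0.25 and 0.20, so the directions of both genes depended on the probe. Fen1, the flap nuclease of the lagging strand, read 11.77, 11.38 and 11.998 against 11.70, 11.75 and 11.79 (difference 0.03, SE 0.14). Lig1, the ligase that joins the fragments, read 10.73, 10.14 and 11.15 against 10.45, 11.17 and 10.93 (difference 0.18, SE 0.22). Its 3 further measured probes were also lowest on control replicate 2.

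Single-strand binding genes showed almost no difference as a group. Rpa1, the large subunit of replication protein A, read 12.94, 12.81 and 13.04 with Flvcr and 12.86, 12.66 and 12.96 without, and the difference was -0.10 (SE 0.11, interval -0.34 to 0.13). Rpa2 read 9.23, 8.99 and 9.31 against 9.18, 9.39 and 9.54 (difference 0.19, SE 0.16), and Rpa3 had a difference of -0.09. The subunits of this complex thus did not lean the same way. Their mean moved by 0.34 within control, the same as the MCM group and less than each other group except origin recognition.

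Nucleotide supply genes had a mean of 10.69, 9.96 and 10.78 with Flvcr and 10.32, 10.83 and 10.71 without. All 5 were lowest on control replicate 2. Tk1, the thymidine salvage kinase, read 10.27, 9.54 and 10.61 against 10.15, 10.70 and 10.92, a difference of 0.45 (SE 0.24, interval -0.06 to 0.96). Its other measured probe had a difference of -0.17. Tyms, which makes thymidylate, read 11.69, 11.29 and 12.02 against 11.38, 11.94 and 11.89 (difference 0.07, SE 0.18). The ribonucleotide reductase genes Rrm1 and Rrm2 had differences of 0.19 and -0.15, and their directions depended on the probe. Another probe of Rrm1 gave -0.05, and those of Rrm2 gave -0.06 and 0.09. Dut, the dUTPase, had a difference of 0.14.

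Chromatin genes of the fork closed the set. Uhrf1, which guides maintenance DNA methylation behind the fork, read 13.11, 12.57 and 13.05 against 12.79, 12.96 and 13.02 (difference 0.02, SE 0.13). Chaf1b, of chromatin assembly factor, read 10.26, 9.84 and 10.44 against 10.31, 10.01 and 10.75 (difference 0.18, SE 0.19), and its partner Chaf1a had a difference of -0.01. All 3 were lowest on control replicate 2.

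**Figure D4:**
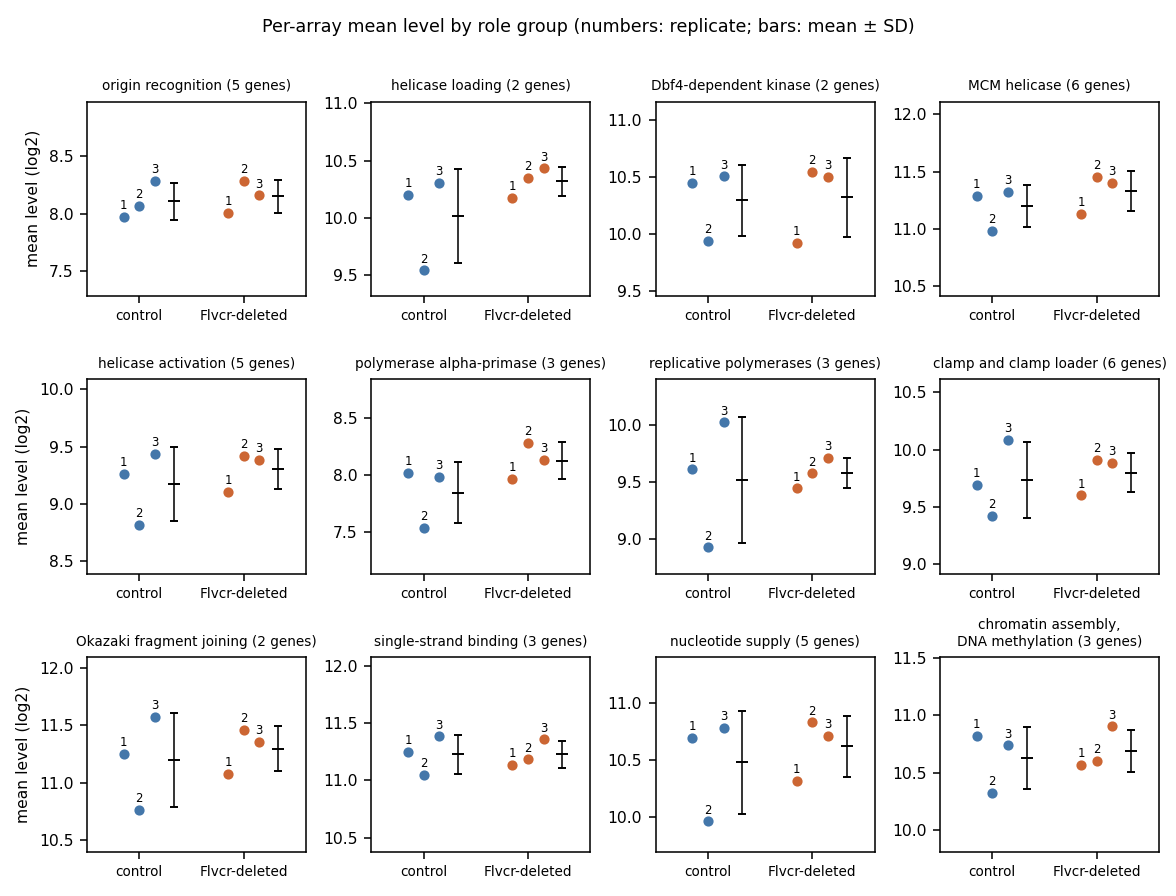
Mean log2 level (vertical axes, equal span) of the measured genes in each of the 12 role groups on each array, with the replicate number beside each point (blue control, orange Flvcr-deleted) and group mean ± SD as bars. The genotypes overlap in all 12 groups, and control replicate 2 is lowest in 10.

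Across role groups, 11 of 12 mean differences were above 0, from 0.02 for the Dbf4-dependent kinase to 0.30 for helicase loading, and that of single-strand binding was -0.00086. Without control replicate 2, 8 of the 12 were below 0. All 12 groups overlapped between genotypes. Probes beyond the brightest come from the same genes and arrays, and are no separate support. There were 34 of them, for 21 genes, and 23 were lowest on control replicate 2. Of these 34 probes, 22 read higher in Flvcr-deleted cells, and 0 had an unadjusted p under 0.05 (limma). For 12 of the 21 genes the probes differed in sign.

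The rest of the pathway also held no gene past the threshold. Of 76 further genes listed, 62 were measured, with a median difference of 0.08. Of the 62, 0 passed an adjusted p of 0.05 (limma), beside 0.148% of all genes. At an unadjusted p under 0.05 (limma) there were also 0, beside 4.63% of all genes. Of the 62, 36 read higher (58.1%, beside 51.8% of all genes) and 26 lower. Control replicate 2 was the lowest array for 18.9% of all genes. Of 23 accessory fork and initiation genes, 12 were lowest on control replicate 2. Mtbp, a partner in origin firing, had a difference of 0.40 (SE 0.20) and the RNase H2 subunit gene Rnaseh2c one of -0.22 (SE 0.15). Other nucleotide genes (11 measured, 7 lowest there) included the CTP synthase gene Ctps (difference 0.28) and the reductase gene Rrm2b (difference 0.33). Of 8 other chromatin genes 3 were lowest there, and Supt16, a histone chaperone subunit, had a difference of -0.15 and Cdca7 one of 0.09. Of 20 E2F, cyclin and inhibitor genes 10 were lowest there, with the repressor E2f6 (difference 0.27) and the cyclin gene Ccne2 (difference 0.39). Ccne2, which drives entry into S phase, read 7.42, 6.90 and 7.63 against 7.25, 8.21 and 7.66.

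The mean of mitotic genes ordered the 6 arrays as the mean over the 45 replication genes did, with wider swings. Of 19 listed, 15 were measured, and their mean deviation was 0.04, -0.72 and 0.51 in control, beside -0.47, 0.43 and 0.21 in Flvcr-deleted cells. Of the 15, 12 were lowest on control replicate 2, beside 18.9% of all genes. Cenpa, the centromeric histone, read 12.65 there against 13.18 and 13.62 on the other control arrays. Birc5, of the chromosomal passenger complex, read 11.58 there against 12.16 and 12.68, and was lowest on Flvcr-deleted replicate 1 (11.48). By contrast, 0 of 9 double-positive markers were lowest on control replicate 2, and their mean deviation there was 0.11, with Cd8b1 at 14.90 and Ets2 at 14.33. Whether replication genes differed from these lists was not tested.

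**Figure D5:**
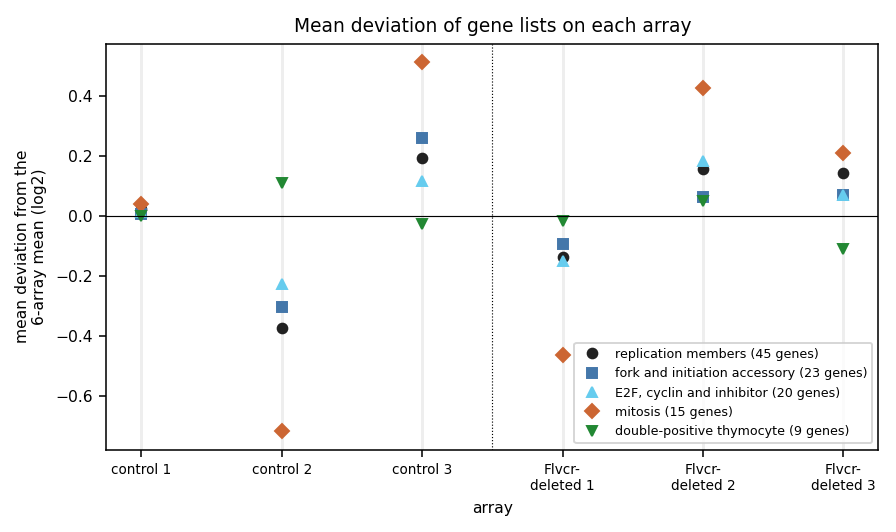
Mean deviation from each gene's 6-array mean (log2, vertical axis) on each array (horizontal axis) for replication genes and 4 other lists, 1 point per list and array. Replication and mitotic genes are lowest on control replicate 2 and next lowest on Flvcr-deleted replicate 1, while double-positive markers lie at 0.11 and -0.02 there.

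Markers of other cells were compared over the same arrays. Of 7 erythroid markers 3 were measured, and Alas2 and Slc4a1 were each detected on 1 array. The summed linear level of the 3 was 8368, 2337 and 2653 in control, beside 500.4, 8963 and 11143 in Flvcr-deleted cells, so it was lowest on the same pair of arrays, in the other order. Hbb-b1 read 10.45 on control replicate 2, 10.46 on control replicate 3 and 7.86 on Flvcr-deleted replicate 1. For Hba-a1 these values were 9.83, 10.20 and 7.79. On control replicate 1 and Flvcr-deleted replicates 2 and 3, Hbb-b1 read 12.07, 12.32 and 12.47, and Hba-a1 read 11.97, 11.89 and 12.41. The part of erythroid transcripts in the replication values was not tested. Early thymocyte markers (7 of 9 measured) deviated by 0.29 on control replicate 2 and by -0.32 on Flvcr-deleted replicate 1. On the same arrays, mature single-positive markers (6 of 9) deviated by 0.08 and -0.17. Dendritic cell and macrophage markers (6 of 10) deviated by 0.03 and -0.22 there. Of 6 B cell markers only Cd79b was measured (0.20 and 0.39), and of 6 epithelial markers only Ccl25 (-0.46 and 0.07). Ms4a1, Pax5, Epcam, Krt5, Krt8 and Foxn1 were detected on 0 arrays.

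Between the genotypes, the marker lists of other thymocytes and of dendritic cells and macrophages had lower means in Flvcr-deleted cells, and 0 markers passed an adjusted p of 0.05 (limma). Mature single-positive markers had a mean of 8.03 ± 0.22 (SD, n = 3) with Flvcr and 7.47 ± 0.15 (SD, n = 3) without, and the difference was -0.56. All 6 read lower, whereas 51.8% of all genes read higher. Of the 6, 4 (Nkg7, Ccr7, Cd52 and Klf2) had an unadjusted p under 0.05 (limma), beside 4.63% of all genes. Nkg7 and Il7r were detected on 3 control and 0 Flvcr-deleted arrays. Both thus passed the filter only through the group where they read higher, which favours a lower list mean in Flvcr-deleted cells. Dendritic cell and macrophage markers had a mean difference of -0.29, with 4 of 6 lower, and Cd74 and H2-Eb1 had an unadjusted p under 0.05. Early thymocyte markers had a mean difference of -0.21, with 5 of 7 lower, and Ly6d and Cd44 had an unadjusted p under 0.05. Il7r was on this list as well as on the mature single-positive list. Ly6d was nearly as bright as the double-positive marker Rag1, so here it may not be particular to early cells. Ly6d had the smallest p of all these markers, 0.000335 unadjusted and 0.137 adjusted by limma, with a difference of -0.46. Double-positive markers had a mean difference of -0.05. The mitotic list had one of 0.11, with 13 of 15 higher, beside 51.8% of all genes. Without control replicate 2 the difference of the mitotic list was -0.22. In it only Mki67, a marker of dividing cells, had an unadjusted p under 0.05, with a difference of 0.48. Mki67 was lowest on control replicate 2 (9.04). Mean levels of the markers differed widely, at 5.45 for Nkg7, 5.79 for Ccr7, 13.47 for Ly6d and 13.96 for Cd52, beside 13.74 for Rag1. Bulk levels do not tell which cells a transcript came from, so a lower list mean is no count of other cells. The part of other cells in the replication values was not tested.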

How the data were processed

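The authors deposited linear probe intensities that had not been scaled to each other. Each deposited intensity has its own detection p-value, per the file headers. Log2 values came in another deposited table. The tool lumi is named, without a version, in the submitters' processing notes. These log2 values equalled the log2 of quantile-normalized intensities to within 5.00e-09. Groups and replicate numbers came from the sample titles.

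Probe names came from the platform annotation (35784 of 45281 probes with 1 symbol, 0 with several, 9497 with none), updated through RefSeq, GRCm38.p6. Intensities were processed by neqc, from limma 3.58.1 under R 4.3.3 (offset 16, negative controls inferred from the p-values of detection). The filter, detection at p under 0.05 on 3 or more arrays, kept 15448 probes. Genotypes were compared over all kept probes with lmFit and eBayes, modelling a variance trend. Tests were 2-sided with Benjamini-Hochberg adjustment at 0.05. No p was computed for means over genes. The procedure was tested on simulated data. The number of arrays limits the precision.

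The 48 genes, 12 role groups, 4 lists of further replication genes and 8 marker lists were chosen with earlier results of these data known. Given in full were, per role group, the brightest gene and that with the largest absolute difference. Per further list the 2 genes with the smallest p were given with their difference. The 2 brightest markers were given on some arrays for the mitotic and double-positive lists, and on all arrays for the erythroid list. Genes given in part by complex, and Orc1, Orc5, Mcm2, Mcm5, Pcna, Pole and the markers named for their p, were chosen after their values were seen. The promoter search was also chosen then. Alternatives changed the background correction, normalization, deposited values, filter, variance model, array weights, replicate block, Xist as covariate, probe rule, threshold and each array left out.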

Additional observations from a re-analysis of the deposited data

How the results depend on the processing

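Under all 17 alternatives, 0 replication genes and 0 of the further replication genes passed (limma). The lowest adjusted p among replication genes was 0.342 for Rfc1, with array weights. The count at an unadjusted p under 0.05, 0 as reported, was 2 with scaling to a common median, 2 with no detection filter, 5 with array weights, 2 with the replicate block and 1 with a gene's probes averaged, all higher. Leaving out single arrays gave 0 to 6, and the 2 without control replicate 2 were both lower, whereas the 6 without control replicate 3 and the 6 without Flvcr-deleted replicate 1 were all higher. The mean difference over the genes was 0.08 to 0.13 under processing alternatives and -0.05 to 0.23 with arrays left out. The count lowest on control replicate 2 was 30 to 37, under alternatives chosen after seeing the data.

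Of 351 values of the 22 genes given in full, 318 kept their direction and 33 turned, 0 of them past the threshold. Under array weights Dbf4 was -0.0071, Pold1 0.037 and Uhrf1 -0.035, with Xist as covariate Dbf4 was -0.012 and Pold1 0.0049, and with the mean of probes Uhrf1 was -0.12. With arrays left out, the ranges that crossed 0 were -0.0098 to 0.36 for Orc6, -0.14 to 0.25 for Dbf4, -0.27 to 0.26 for Cdc7, -0.38 to 0.21 for Gins1, -0.023 to 0.16 for Pola2, -0.32 to 0.28 for Pold1, -0.0502 to 0.29 for Pold2, -0.16 to 0.26 for Rfc2, -0.14 to 0.17 for Fen1, -0.0897 to 0.42 for Lig1, -0.12 to 0.25 for Tyms, -0.15 to 0.12 for Uhrf1 and -0.016 to 0.35 for Chaf1b. The cause was not tested. Prim1 was not measured under the strict filter.

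Deviations from the group means correlated at -0.15, 0.09 and 0.11 between samples of the same number, over kept probes. Of the 6 arrays, 4 correlated best with their own number. These values do not settle whether the numbers pair samples. The labels do not say so either, and the replicate block was kept as an alternative. Signal near background limits Prim1 and Orc1, and Orc2, Pola1 and Pole2 could not be tested.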
